A study of Mus musculus with 24 samples.

Results

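A set of 10 transcripts that separate RAB3A from BC74C tumours of the mouse cortex was examined in 24 tumours: Kitl, Adgrg6, Liph, Rdh5, Acy1, Rerg, Igsf9b, Taf9b, Usp34 and Mtmr1. They are 10 of the 13218 genes tested, out of 17097 genes with a probe set that carries a single gene symbol. They were chosen for a small p between RAB3A and BC74C tumours and are 10 of the 18 genes with the smallest, not the first 10, so every value of that contrast given here describes the choice and tests nothing. Each gene is represented by the probe set with its highest mean over the 24 arrays, and all 10 passed the filter on low values, a log2 mean of at least 3.76 over all tumours.

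Total RNA was hybridised to single-colour arrays, 1 for each tumour. Per the labels, the tumours were cut from the cortex of mice and grew from cells that expressed RAB3A (6 tumours), BC74C (9) or ZNF668 (9), here called the class gene. A second label calls 4 tumours HGG, which the labels do not spell out, 11 ependymoma, 5 TUMOR and 4 UNKNOWN. Titles begin with mmr in 6 tumours and with elw in 18, with no meaning given. The RAB3A tumours were 2 mmr and 4 elw, with 2 labelled ependymoma, 2 TUMOR and 2 UNKNOWN. The BC74C tumours were 1 mmr and 8 elw, with 2 HGG, 6 ependymoma and 1 UNKNOWN. The ZNF668 tumours were 3 mmr and 6 elw, with 2 HGG, 3 ependymoma, 3 TUMOR and 1 UNKNOWN. RAB3A is a Rab GTPase that acts in neurotransmitter release, and ZNF668 a protein with zinc fingers. BC74C is not an approved gene symbol and is used as the labels spell it. Mouse strain, age, sex, the cells that received the class gene and the way it was delivered are not given in the sources used here, and tumour-free cortex was not analysed here. Nothing in the labels gives each tumour a mouse of its own, so p-values reflect the spread between these samples alone, which may be technical. In RNA of whole tumours, fewer cells of a type and less of a transcript per cell cannot be told apart.

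Of the 10 genes, 6 were lower in RAB3A than in BC74C tumours. Kitl encodes stem cell factor, the ligand of the receptor tyrosine kinase Kit, made as a membrane-bound and as a soluble form and needed by blood, germ and pigment cells. Adgrg6 (also called Gpr126) is an adhesion G protein-coupled receptor that binds collagen IV and laminin and that Schwann cells need to myelinate axons in mouse and zebrafish. Liph is a lipase that makes the signalling lipid lysophosphatidic acid from phosphatidic acid. Rdh5 is a retinol dehydrogenase of the visual cycle, best known in the pigment epithelium of the eye. Acy1 is an aminoacylase that frees amino acids from their acetylated forms in the cytosol. Rerg is a Ras-like GTPase described as a growth inhibitor regulated by oestrogen in human breast cancer cells. The other 4 were higher. Igsf9b is an immunoglobulin superfamily adhesion protein of inhibitory synapses. Taf9b is a subunit of transcription complexes and a paralogue of Taf9. Usp34 is a large deubiquitinase that acts on axin in Wnt signalling. Mtmr1 is a myotubularin, a phosphatase of phosphoinositide lipids on endosomes. Taf9b and Mtmr1 lie on the X chromosome.

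Promoter windows of RefSeq, assembly GRCm38.p6, were matched by gene identifier for 8 of the 10 genes. Each window holds the 250 bases before and the 50 after an annotated start. Those of Kitl, Adgrg6, Liph, Rdh5 and Usp34 are shown. Each of these genes was in a pair that passed the test of joint variation described further on. In its pair, Usp34 ran opposite to Adgrg6. Each window is written from its 5′ end on the gene's strand, and capitals mark a match, on either strand, to any of 6 motifs. These are the TATA box spelled TATAAA, the GC box spelled GGGCGG, the binding motif of NF-Y spelled CCAAT, the E-box spelled CACGTG, the AP-1 site spelled TGANTCA and the nuclear receptor motif spelled AGGTCA. Adjoining or overlapping matches run together as 1 stretch of capitals.
Kitl, chr10:100015571-100015870, plus strand: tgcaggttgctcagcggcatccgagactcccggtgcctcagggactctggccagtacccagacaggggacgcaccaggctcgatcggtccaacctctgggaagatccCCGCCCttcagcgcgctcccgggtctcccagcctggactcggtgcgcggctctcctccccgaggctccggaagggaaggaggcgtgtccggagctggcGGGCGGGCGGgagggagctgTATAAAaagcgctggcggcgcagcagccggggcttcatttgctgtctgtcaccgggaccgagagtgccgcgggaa
Adgrg6, chr10:14544987-14545286, minus strand: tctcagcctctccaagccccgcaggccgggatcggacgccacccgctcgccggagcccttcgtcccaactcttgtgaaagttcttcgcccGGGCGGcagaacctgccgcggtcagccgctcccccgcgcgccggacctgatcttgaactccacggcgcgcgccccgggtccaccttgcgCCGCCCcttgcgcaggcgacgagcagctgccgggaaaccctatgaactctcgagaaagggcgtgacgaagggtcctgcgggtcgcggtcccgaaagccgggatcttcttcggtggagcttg
Liph, chr16:21995493-21995792, minus strand: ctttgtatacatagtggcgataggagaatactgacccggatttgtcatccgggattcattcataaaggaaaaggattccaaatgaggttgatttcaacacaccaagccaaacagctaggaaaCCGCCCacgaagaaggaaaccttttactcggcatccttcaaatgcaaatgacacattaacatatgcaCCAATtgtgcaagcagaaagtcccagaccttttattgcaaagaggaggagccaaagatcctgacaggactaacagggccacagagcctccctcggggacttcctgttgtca
Rdh5, chr10:128919248-128919547, minus strand: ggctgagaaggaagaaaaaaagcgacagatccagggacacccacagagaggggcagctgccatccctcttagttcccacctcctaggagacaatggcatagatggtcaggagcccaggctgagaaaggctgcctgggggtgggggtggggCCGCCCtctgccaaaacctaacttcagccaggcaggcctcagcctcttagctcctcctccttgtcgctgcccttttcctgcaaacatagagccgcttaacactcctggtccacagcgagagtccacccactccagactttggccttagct
Usp34, chr11:23306645-23306944, plus strand: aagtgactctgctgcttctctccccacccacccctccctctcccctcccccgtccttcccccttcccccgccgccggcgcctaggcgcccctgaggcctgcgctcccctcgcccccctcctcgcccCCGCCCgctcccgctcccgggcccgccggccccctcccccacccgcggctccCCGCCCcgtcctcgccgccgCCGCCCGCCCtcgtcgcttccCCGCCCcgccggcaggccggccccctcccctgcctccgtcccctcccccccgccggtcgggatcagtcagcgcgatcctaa
The Kitl window was the only one of the 8 genes' with a TATA box, at bases 226 to 231, and 13.6% of all 32851 windows of the table hold one. The GC box was found in a window of all 8 genes, against 35.7% of all windows. It occurred 3 times in the Kitl window, 2 times in that of Adgrg6, 5 times in that of Usp34 and once in those of Liph and Rdh5. The NF-Y motif lay in the windows of 2 genes, Liph and Acy1, against 37.4% of all windows. The E-box was found for 2 genes, Acy1 and Taf9b, against 7.15% of windows. The AP-1 site and the nuclear receptor motif were found for 0 of the 8, against 7.81% and 16.3%. The 5 windows shown had a GC content of 68.7% for Kitl, 69.0% for Adgrg6, 45.7% for Liph, 58.3% for Rdh5 and 80.3% for Usp34. The median over all windows was 52.7% (quartiles 45.7% and 61.7%), and a GC-rich window holds GC boxes more readily.

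All values below are log2 expression values as deposited, and levels of different probe sets are not compared with each other. Kitl lay between 7.99 and 8.85 in the 6 RAB3A tumours, with a median of 8.36. In the 9 BC74C tumours it lay between 8.72 and 11.11, with a median of 9.94, and in the 9 ZNF668 tumours between 8.17 and 10.11, with a median of 9.34. The RAB3A tumours sat close together and below 7 of the 9 BC74C tumours, and only the highest of them, replicate 4, reached into the BC74C range. The mean was 8.40 ± 0.29 in the 6 RAB3A tumours and 9.93 ± 0.93 in the 9 BC74C tumours (mean ± SD), a log2 difference of -1.53 (SE 0.35), or 2.89-fold lower. The other probe sets of Kitl gave -1.40, -1.01 and -0.66. Of 25 tested genes of the Kit and class III receptor pathway, 0 passed the limma test between these tumours over all genes, and 4 had an unadjusted p under 0.05, 3 higher and 1 lower. The smallest p were those of Csf1, the ligand of the macrophage receptor Csf1r, at -0.42 (SE 0.18), and of Pdgfrb, a platelet-derived growth factor receptor of pericytes, at 0.48 (SE 0.21). Over all genes tested 0% were called at an adjusted p under 0.05 and 8.21% had an unadjusted p under 0.05, with a smallest adjusted p of 0.0697.

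Adgrg6 spread widely within class genes, with a residual SD of 0.94, about that of Liph (0.93). It ranged from 3.69 to 6.61 in RAB3A tumours, around a median of 5.19, and from 6.46 to 9.004 in BC74C tumours, around a median of 7.80. ZNF668 tumours ranged from 5.19 to 8.20 with a median of 6.45. Only RAB3A replicate 4, at 6.61, lay within the BC74C range, and 1 RAB3A tumour was below the low-value threshold of 3.76, where a value says little more than that the signal was dim. The means were 5.16 ± 1.16 in the 6 RAB3A tumours and 7.59 ± 0.89 in the 9 BC74C tumours (mean ± SD), a difference of -2.43 (SE 0.47). A second probe set gave -1.58 (SE 0.40) and followed the first across the 24 tumours with r = 0.94. Of 20 tested adhesion receptors and ligands, 0 were called and 3 had an unadjusted p under 0.05. Adgrl3, a latrophilin, differed by 0.42 (SE 0.16) and Adgrd1, another adhesion receptor, by -1.74 (SE 0.73).

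Liph was near the dim end of the arrays in RAB3A tumours. It lay between 3.67 and 5.08 there, with a median of 3.98, and 1 of the 6 was below 3.76. BC74C tumours covered a wide range, from 4.59 to 8.01 around a median of 6.13. Most ZNF668 tumours were low too, from 3.90 to 6.43 with a median of 4.35, and 7 of 9 fell inside the RAB3A range. RAB3A tumours averaged 4.12 ± 0.49 (SD, n = 6) and BC74C tumours 6.35 ± 1.22 (SD, n = 9), a difference of -2.23 (SE 0.47). The second Liph probe set, dimmer than the first, gave -0.46 (SE 0.16). In the lysophosphatidic acid pathway 0 of 12 tested genes were called, 0 had an unadjusted p under 0.05, and 10 of 12 differences were negative. The smallest p belonged to Lpl, lipoprotein lipase, at -0.75 (SE 0.37), and Pla1a, a phospholipase, at 0.42 (SE 0.21).

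**Figure D1:**
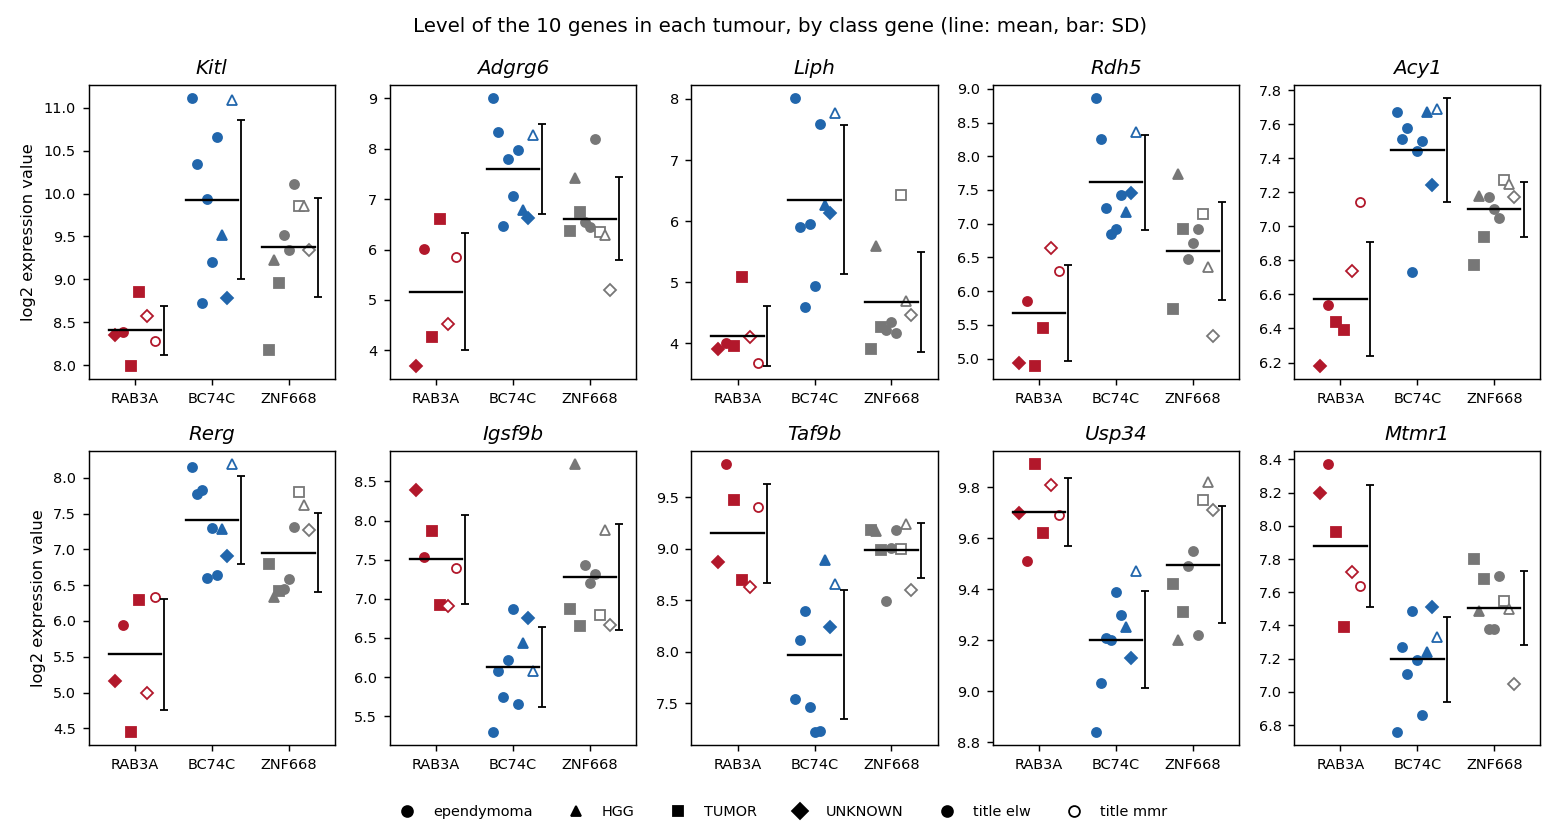
The plot gives the log2 expression value of each of the 10 genes (1 panel per gene, vertical axis) in each tumour, by class gene (RAB3A, BC74C, ZNF668). Marker shape is the tumour label, open markers are mmr titles, the line is the mean and the bar 1 SD; the RAB3A and BC74C tumours do not overlap for Rdh5, Rerg, Igsf9b and Usp34, and ZNF668 tumours lie between or across both.

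Rdh5 did not overlap between the groups. The RAB3A values ran from 4.89 to 6.64 with a median of 5.65, and the BC74C values from 6.84 to 8.86 with a median of 7.42. ZNF668 values ran from 5.34 to 7.74 with a median of 6.71, across both. The means of 5.68 ± 0.72 in the 6 RAB3A tumours and 7.61 ± 0.71 in the 9 BC74C tumours (mean ± SD) differed by -1.94 (SE 0.37), or 3.83-fold lower. Of 22 tested genes of the retinoid pathway 0 were called and 2 had an unadjusted p under 0.05. These were Cyp26b1, which degrades retinoic acid, at 0.92 (SE 0.31), and Rxrg, a retinoid X receptor, at -1.10 (SE 0.49).

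Acy1 differed less but was tighter within each class gene. Its RAB3A values ran from 6.18 to 7.14 with a median of 6.49, its BC74C values from 6.73 to 7.69 with a median of 7.51, and its ZNF668 values from 6.77 to 7.27 with a median of 7.17. A single BC74C tumour, replicate 4 at 6.73, fell among the RAB3A values. The other 8 BC74C tumours were all above the highest RAB3A tumour. The means were 6.57 ± 0.33 in the 6 RAB3A tumours and 7.45 ± 0.30 in the 9 BC74C tumours (mean ± SD), a difference of -0.88 (SE 0.16). Among 9 tested enzymes of acetylated amino acids and neighbours, 0 were called and 1 had an unadjusted p under 0.05, Abhd14a, a hydrolase gene next to Acy1 in the RefSeq order, at -0.59 (SE 0.22). Pm20d1, which joins and cleaves fatty acyl amino acids, differed by -0.54 (SE 0.27).

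Rerg had the smallest p of all genes tested. RAB3A tumours lay between 4.45 and 6.33, with a median of 5.56, and BC74C tumours between 6.598 and 8.19, with a median of 7.30. ZNF668 tumours lay between 6.34 and 7.80, with a median of 6.80, so that 0 of 9 were inside the RAB3A range, the lowest of them just above its upper end. The RAB3A mean was 5.53 ± 0.78 (SD, n = 6) and the BC74C mean 7.41 ± 0.61 (SD, n = 9), a difference of -1.88 (SE 0.33). Of 13 tested Ras-like GTPases 0 were called and 2 had an unadjusted p under 0.05, Rras at -0.87 (SE 0.26) and Rasl11a at -1.36 (SE 0.62).

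Among the genes higher in RAB3A tumours, Igsf9b did not overlap between the groups. It ran from 6.91 to 8.39 in RAB3A tumours around a median of 7.47, and from 5.30 to 6.87 in BC74C tumours around a median of 6.08. ZNF668 tumours ran from 6.65 to 8.72 around 7.20. The margin was narrow: the lowest RAB3A value, 6.91, and the highest BC74C value, 6.87, nearly met. RAB3A tumours averaged 7.505 ± 0.57 (SD, n = 6) and BC74C tumours 6.13 ± 0.51 (SD, n = 9), a difference of 1.38 (SE 0.31). In the list of inhibitory synapse genes 0 of 16 tested were called and 0 had an unadjusted p under 0.05. Dmd, dystrophin, differed by -0.47 (SE 0.26) and Nrxn3, a presynaptic neurexin, by 0.89 (SE 0.63).

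Taf9b lay between 8.63 and 9.82 in RAB3A tumours with a median of 9.13, and between 7.22 and 8.89 in BC74C tumours with a median of 8.11. ZNF668 tumours were close together, between 8.49 and 9.24, with a median of 9.01. The 2 highest BC74C tumours, both labelled HGG, at 8.89 and 8.66, were the ones that reached the RAB3A range. The mean was 9.15 ± 0.48 in the 6 RAB3A tumours and 7.97 ± 0.63 in the 9 BC74C tumours (mean ± SD), a difference of 1.18 (SE 0.25). Of 25 tested subunits of TFIID and SAGA, complexes that hold TAF proteins, 0 were called and 0 had an unadjusted p under 0.05. Taf6 differed by -0.29 (SE 0.14) and Taf4b by -0.36 (SE 0.20).

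Usp34 and Mtmr1 had small differences and small spreads. Usp34 ran from 9.51 to 9.89 in RAB3A tumours (median 9.69), from 8.84 to 9.47 in BC74C tumours (median 9.21) and from 9.20 to 9.82 in ZNF668 tumours (median 9.49). The RAB3A and BC74C values did not overlap, and their means of 9.70 ± 0.13 (SD, n = 6) and 9.20 ± 0.19 (SD, n = 9) differed by 0.50 (SE 0.11). Its other probe sets did not behave alike: 1 gave 0.47 (SE 0.28) and 1 gave -0.0037 (SE 0.33), with the opposite sign. Of 22 tested Wnt pathway genes and large deubiquitinases 0 were called and 3 had an unadjusted p under 0.05, among them the deubiquitinases Usp7 at 0.33 (SE 0.10) and Usp24 at 0.48 (SE 0.16).

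Mtmr1 ran from 7.39 to 8.37 in RAB3A tumours (median 7.84), from 6.76 to 7.51 in BC74C tumours (median 7.24) and from 7.05 to 7.80 in ZNF668 tumours (median 7.498). Only the lowest RAB3A tumour, replicate 4, lay within the BC74C range. The means were 7.88 ± 0.37 in the 6 RAB3A tumours and 7.20 ± 0.26 in the 9 BC74C tumours (mean ± SD), a difference of 0.68 (SE 0.16), and a second probe set gave 0.36 (SE 0.21). Among 18 tested myotubularins and enzymes of the same lipids 0 were called and 2 had an unadjusted p under 0.05, Mtmr11 at -1.52 (SE 0.45) and Mtmr3 at 0.34 (SE 0.11). Over the 10 lists of relatives together, 0 of 182 tested genes were called and 17 (9.34%) had an unadjusted p under 0.05, close to the 8.21% of all genes. Their median difference was 0.02, and that of all genes -0.04.

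RAB3A and BC74C tumours did not overlap for 4 of the 10 genes, Rerg, Rdh5, Igsf9b and Usp34, as for 0.113% of all genes tested. Since the genes were selected on this contrast, that count adds nothing to the choice. The other 8 of the 18 genes with the smallest p, not in the set, were Upp1 (difference -2.12), Frem1 (-1.62), Dctd (-2.09), Mrps18a (-0.39), Sox13 (-1.13), N4bp3 (-1.33), Fam72a (-1.71) and Gamt (-1.47). Upp1 ranked 3 and Frem1 ranked 6, ahead of most of the 10, and all 8 were lower in RAB3A tumours. How the 10 were picked among the 18 is not recorded, so the set has no sharp edge by p. Mtmr1 was the last of the 10, at rank 18 with a difference of 0.68, and Epb41l4a followed at rank 19 with -2.40. The direction of each difference was kept in all fits that left out 1 tumour, which the choice for a small p makes likely and which tests nothing. Leaving out a ZNF668 tumour cannot change these differences.

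The level in ZNF668 tumours was set against the other 15, the RAB3A and BC74C tumours together. This difference is orthogonal to the contrast that chose the genes, though the spread within class genes enters both. In these terms 0 of the 10 genes passed (limma, adjusted over all genes tested), against 0.265% of all genes (35 genes, 5 higher and 30 lower). An unadjusted p under 0.05 was seen for 3 of the 10, against 7.41% of all genes. Taf9b averaged 8.44 ± 0.81 (SD, n = 15) in RAB3A and BC74C tumours together and 8.99 ± 0.27 (SD, n = 9) in ZNF668 tumours, a difference of -0.54 (SE 0.20, limma adjusted p = 0.463). Igsf9b averaged 6.68 ± 0.87 (SD, n = 15) and, in ZNF668 tumours, 7.28 ± 0.68 (SD, n = 9), a difference of -0.60 (SE 0.25, limma adjusted p = 0.559). Liph averaged 5.46 ± 1.49 (SD, n = 15) and, in ZNF668 tumours, 4.68 ± 0.81 (SD, n = 9), a difference of 0.78 (SE 0.38, limma adjusted p = 0.671). The other 7 differences lay between -0.30 (Rerg, SE 0.26) and 0.24 (Rdh5, SE 0.29), with limma adjusted p of 0.791 to 0.997.

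Set against each class gene apart, these 3 genes lay nearer to RAB3A tumours. Taf9b differed by 0.16 (SE 0.25) for RAB3A minus ZNF668 and by -1.01 (SE 0.22) for BC74C minus ZNF668. Igsf9b gave 0.22 (SE 0.31) and -1.16 (SE 0.27) in the same order. Liph gave -0.56 (SE 0.47) for RAB3A minus ZNF668 and 1.67 (SE 0.42) for BC74C minus ZNF668. Rerg lay on the other side, with -1.42 (SE 0.33) for RAB3A minus ZNF668 and 0.45 (SE 0.29) for BC74C minus ZNF668. Kitl gave -0.97 (SE 0.35) and 0.56 (SE 0.31), and Acy1 -0.53 (SE 0.16) and 0.35 (SE 0.14). Adgrg6 gave -1.45 (SE 0.47) and 0.98 (SE 0.42), and Rdh5 -0.92 (SE 0.37) and 1.02 (SE 0.33). Usp34 gave 0.21 (SE 0.11) and -0.29 (SE 0.10), and Mtmr1 0.38 (SE 0.16) and -0.31 (SE 0.14). These pairs share the ZNF668 tumours and use the tumours on which the genes were chosen, so no test is given for them.

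The ZNF668 mean lay between the other 2 means for 10 of 10 genes. This was so for 33.1% of all genes tested, and for 78.7% of the 1085 genes with an unadjusted p under 0.05 between RAB3A and BC74C tumours, which are alike chosen for a wide gap. Along the way from the BC74C to the RAB3A mean, ZNF668 stood at 24.1% for Rerg, 36.4% for Kitl, 39.8% for Acy1, 40.2% for Adgrg6 and 45% for Mtmr1. It stood at 52.5% for Rdh5, 58.6% for Usp34, 75% for Liph, 83.8% for Igsf9b and 86.2% for Taf9b.

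**Figure D2:**
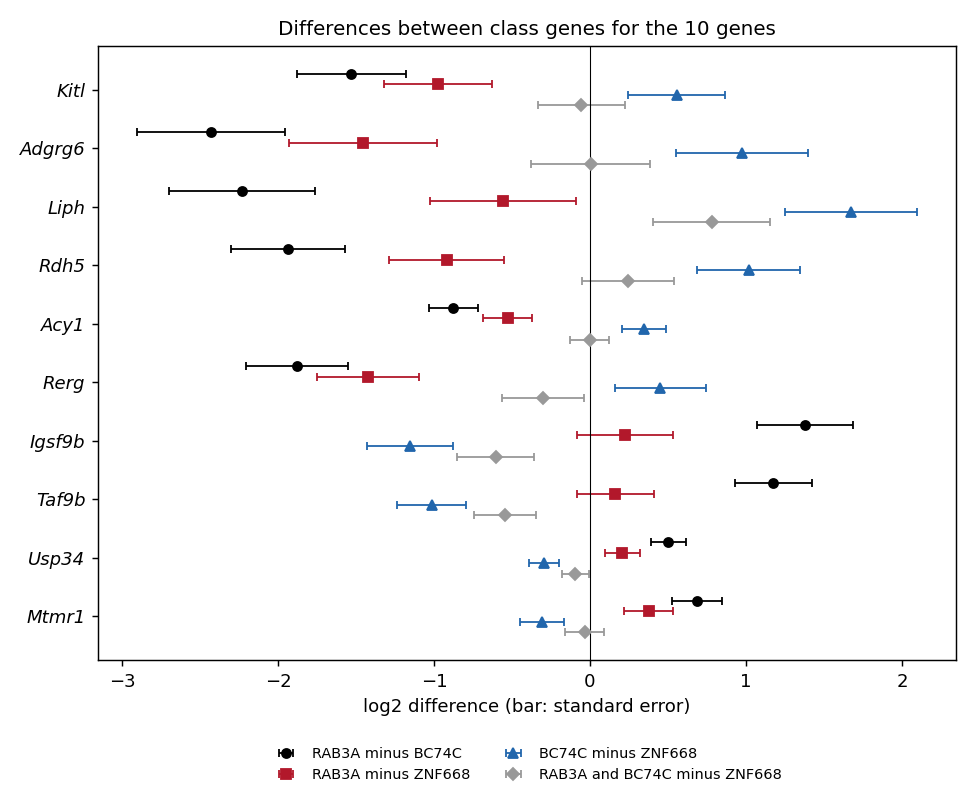
The plot gives, for each of the 10 genes (rows), the log2 difference (horizontal axis, bar 1 standard error) between class genes. Squares and triangles set RAB3A and BC74C tumours against ZNF668 tumours and fall on opposite sides of 0 for every gene; the diamonds, both together minus ZNF668, lie between -0.60 (Igsf9b) and 0.78 (Liph).

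Tumour label was compared with class gene as a covariate in the 15 tumours labelled HGG or ependymoma. Limma called 0 of the 10 genes between HGG and ependymoma, as it called 0% of all genes, and 1 of the 10 had an unadjusted p under 0.05, against 1.73% of all genes. That gene was Taf9b. It had 8.89 and 8.66 in the HGG-labelled BC74C tumours, and 9.17 and 9.24 in the HGG-labelled ZNF668 tumours. The ependymoma-labelled tumours had 7.22 to 8.39 (median 7.5, n = 6) in BC74C, 8.49, 9.01 and 9.18 in ZNF668, and 9.82 and 9.40 in RAB3A. The HGG tumours lay above all ependymoma-labelled tumours in BC74C, while in ZNF668 the 2 labels overlapped, and the fitted difference was 0.76 (SE 0.25, limma adjusted p = 0.9998). The largest difference by size was that of Liph, 0.87 (SE 0.56), with 6.26 and 7.77 in HGG-labelled BC74C tumours, and 5.6 and 4.70 in HGG-labelled ZNF668 tumours. The HGG effect did not differ detectably between BC74C and ZNF668 tumours for any of the 10 (limma, 0 called over all genes, lowest adjusted p among the 10 of 0.63). With only the 11 ependymoma-labelled tumours, RAB3A minus BC74C was -1.24 for Rerg, -0.57 for Acy1 and 1.95 for Taf9b. Each of these moved by more than 1 SD between replicates from its value over all tumours, and the other 7 moved by less. Among RAB3A tumours 2 are labelled ependymoma and 0 HGG.

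The title prefix was compared with class gene as a covariate in all 24 tumours. Between mmr and elw titles limma called 0 of the 10 genes, as 0% of all genes, while 3 of the 10 had an unadjusted p under 0.05, against 8.17% of all genes. These were Rerg at 0.68 (SE 0.27), Acy1 at 0.32 (SE 0.13) and Usp34 at 0.27 (SE 0.09), with limma adjusted p of 0.528, 0.528 and 0.364. Usp34 had 9.81 and 9.69 in the mmr RAB3A tumours, 9.47 in the mmr BC74C tumour, and 9.75, 9.82 and 9.71 in the mmr ZNF668 tumours. The elw tumours had 9.51 to 9.89 in RAB3A, 8.84 to 9.39 in BC74C and 9.20 to 9.55 in ZNF668. The mmr tumours were thus above all elw tumours in BC74C and in ZNF668, but inside the elw range in RAB3A. Within the 18 elw tumours RAB3A minus BC74C stood at 86.8% (Liph) to 118% (Acy1) of its value over all tumours. With the prefix as a block it stood at 88.0% (Usp34) to 108% (Acy1). Within mmr BC74C is 1 tumour, so no value is given.

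Joint variation was measured after the mean of each class gene was taken from each value, which removes the differences that chose the genes. The choice can still enter, because genes that vary together can also shift together between groups of tumours. How far it favours positive r among genes of the same direction, or negative r in mixed pairs, was not tested. It covers 45 pairs over 24 tumours, with p from 100000 permutations of tumours within class gene and Benjamini-Hochberg adjustment over the 45. The 6 genes that were lower in RAB3A tumours varied together: 15 of their 15 pairs had a positive Pearson's r, with a median of 0.426 (0.154 to 0.718). Over all pairs of genes tested, which were not chosen by direction, the median was 0.0066. The 4 higher genes had 4 of 6 positive pairs and a median of 0.12. Pairs with 1 gene of each kind had a median of -0.147, and 6 of 24 were positive. The class genes were not alike in this, a difference that was not tested. Of the 15 pairs of lower genes, 12 were positive within RAB3A (median 0.36), 15 within BC74C (0.675) and 11 within ZNF668 tumours (0.369). Of the 24 mixed pairs, 4 were positive within RAB3A (median -0.442) and 4 within BC74C (-0.355), but 15 within ZNF668 tumours (0.236). In size the 45 pairs did not stand out, with a median of 0.252, against 0.262 for all pairs of genes.

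**Figure D3:**
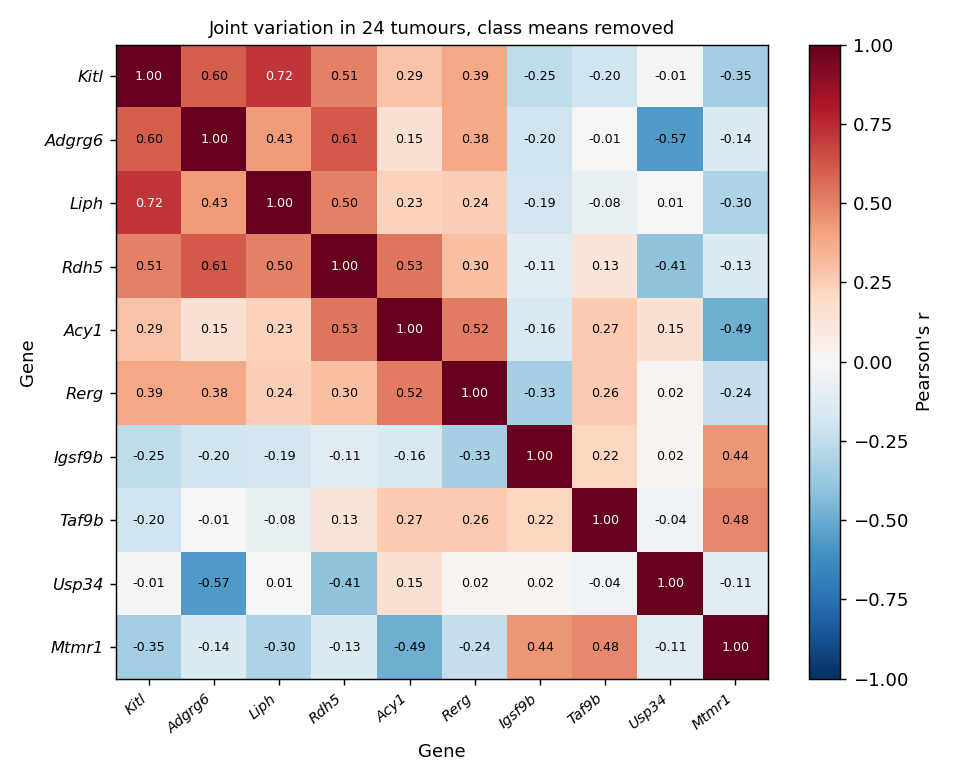
The heat map gives Pearson's r between each pair of the 10 genes over 24 tumours after removal of class gene means (colour scale -1 to 1). The block of the 6 genes that were lower in RAB3A tumours is positive throughout, from 0.154 to 0.718, and the Usp34 row has its lowest value, -0.568, with Adgrg6.

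By Pearson's r, 4 of the 45 pairs passed. The share of all gene pairs that would pass was not measured. As the median size of r was 0.252 here and 0.262 over all pairs, the count does not mark out this set. Liph and Kitl, the lipase and the Kit ligand, had r = 0.718 (permutation p = 0.0014, adjusted 0.0331) and rho = 0.572 (permutation p = 0.0101, adjusted 0.114). Their r was 0.671 without the 2 tumours farthest from the Liph median, 0.768 within mmr, 0.687 within elw, 0.800 within RAB3A, 0.858 within BC74C and 0.369 within ZNF668. Adgrg6 and Kitl had r = 0.602 (permutation p = 0.00147, adjusted 0.0331) and rho = 0.570 (permutation p = 0.00428, adjusted 0.0756). This r was 0.559 without the 2 farthest tumours, 0.433 within mmr, 0.736 within elw, 0.529 within RAB3A, 0.941 within BC74C and 0.280 within ZNF668. For both pairs BC74C tumours were the most tightly aligned and ZNF668 tumours the least, a difference that was not tested.

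Rdh5 and Adgrg6 had r = 0.612 (permutation p = 0.00329, adjusted 0.0379) and rho = 0.590 (permutation p = 0.00504, adjusted 0.0756), with r = 0.524 without the 2 farthest tumours, 0.692 within mmr, 0.664 within elw, 0.345 within RAB3A, 0.758 within BC74C and 0.706 within ZNF668. Adgrg6 and Usp34 ran opposite to each other, with r = -0.568 (permutation p = 0.00337, adjusted 0.0379) and rho = -0.597 (permutation p = 0.00223, adjusted 0.0756). Their r was -0.507 without the 2 farthest tumours, -0.246 within mmr, -0.685 within elw, -0.666 within RAB3A, -0.370 within BC74C and -0.768 within ZNF668. The other Usp34 probe sets, which followed the one used with r = 0.64 and 0.22, were not tried in this pair. In rank correlation 0 of the 45 pairs passed. Leaving out 1 tumour at a time, r kept its sign in all 24 fits for each pair but the adjusted p passed 0.05 in 5 for Liph and Kitl, 6 for Adgrg6 and Kitl, 14 for Rdh5 and Adgrg6 and 13 for Adgrg6 and Usp34. Without BC74C replicate 1, the tumour with the highest Kitl, Adgrg6 and Liph values, all 4 were lost, at an adjusted p of 0.105, 0.105, 0.153 and 0.153.

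**Figure D4:**
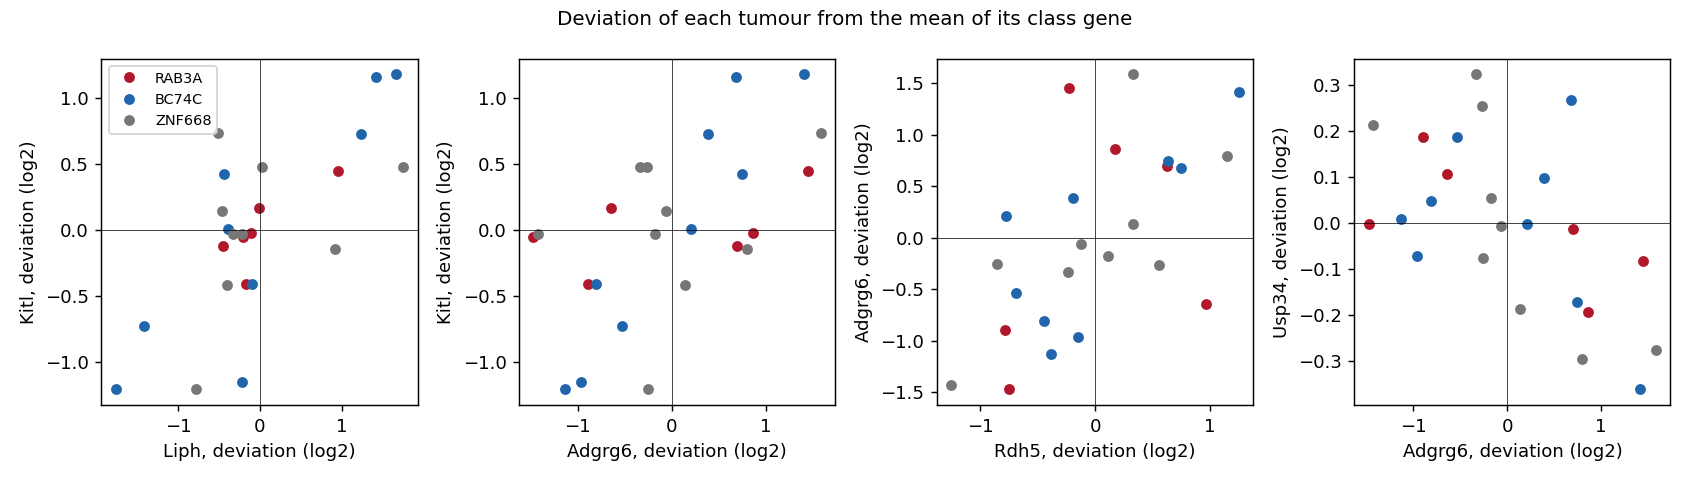
The 4 panels plot the deviation of each of 24 tumours from the mean of its class gene (log2, both axes) for Liph and Kitl, Adgrg6 and Kitl, Rdh5 and Adgrg6, and Adgrg6 and Usp34, coloured by class gene. The first 3 slope upward, with r of 0.718, 0.602 and 0.612, and the last slopes downward, with r = -0.568.

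Marker lists were compared with the genes in the same way, 10 genes by 13 lists or 130 relations. For the labelled tissue, 12 of 12 measured astrocyte genes and 19 of 19 mature neuron genes passed the filter on low values. Of 15 measured genes of ependymal cells and motile cilia 12 passed, with list means of 4.48 to 5.46 in RAB3A, 4.53 to 5.61 in BC74C and 4.54 to 5.14 in ZNF668 tumours. Since 13218 of all 17097 genes passed the same filter, these counts do not identify a tissue. Proliferation genes averaged 6.80 ± 1.59 in the 6 RAB3A tumours, 7.65 ± 1.15 in the 9 BC74C tumours and 7.53 ± 1.62 in the 9 ZNF668 tumours (mean ± SD), and 19 of 19 were lower in RAB3A than in BC74C tumours, none of them called by limma (0 at an unadjusted p under 0.05). Mature neuron genes averaged 8.73 ± 0.95 in the 6 RAB3A tumours, 8.23 ± 1.27 in the 9 BC74C tumours and 7.57 ± 1.54 in the 9 ZNF668 tumours (mean ± SD), with 17 of 19 higher in RAB3A than in BC74C tumours (median difference 0.57) and again 0 called. Oligodendrocyte progenitor genes had means of 8.22 ± 1.12 in RAB3A, 7.73 ± 0.50 in BC74C and 8.68 ± 0.73 in ZNF668 tumours. Of these genes, 8 of 10 were higher in RAB3A than in BC74C tumours (median 0.70). For endothelial genes 11 of 12 were higher (median 0.41), and for those of pericytes and fibroblasts 7 of 8 (median 0.31). None of these was called. Over all genes tested the median was -0.04, and 44% were higher in RAB3A than in BC74C tumours. Genes of 1 list can move together, so their directions are not separate observations. The part of the progenitor, endothelial and pericyte lists in the differences was not tested. With the proliferation and neuron list means as covariates, RAB3A minus BC74C stood at 86.2% (Kitl) to 103% (Usp34) of its value without them, and the median r of the 15 pairs was 0.294, with 15 of 15 positive.

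No relation between a gene and a list passed after adjustment over the 130 (0 of 130, lowest adjusted p 0.0544 for r and 0.14 for rho). The 6 at that value are given as such. Liph ran opposite to mature neuron genes (r = -0.652, permutation p = 0.0012; rho = -0.520, permutation p = 0.0179) and to mature oligodendrocyte genes (r = -0.685, permutation p = 0.00203; rho = -0.535, permutation p = 0.0144). Kitl ran along with proliferation genes (r = 0.551, permutation p = 0.00201; rho = 0.565, permutation p = 0.00356), and Adgrg6 with those of microglia and macrophages (r = 0.624, permutation p = 0.00215; rho = 0.523, permutation p = 0.0116). Mtmr1 ran opposite to pericyte and fibroblast genes (r = -0.664, permutation p = 0.00094; rho = -0.657, permutation p = 0.00108) and along with astrocyte genes (r = 0.598, permutation p = 0.00251; rho = 0.458, permutation p = 0.0396). With the 2 farthest tumours left out the r values were -0.496, -0.498, 0.567, 0.431, -0.692 and 0.385. Among mmr tumours they were -0.727, -0.816, 0.252, 0.654, -0.498 and 0.523, and within elw -0.586, -0.680, 0.584, 0.608, -0.689 and 0.661. Within the 6 RAB3A tumours 3 of the 6 turned sign, Liph with mature neuron genes (0.42), Liph with mature oligodendrocyte genes (0.173) and Kitl with proliferation genes (-0.112). For these 3 relations r was -0.781, -0.805 and 0.824 within BC74C, and -0.815, -0.617 and 0.642 within ZNF668 tumours. The other 3 kept their sign within each class gene. The second Mtmr1 probe set, which followed the first with r = 0.39, was not tried against the lists.

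**Figure D5:**
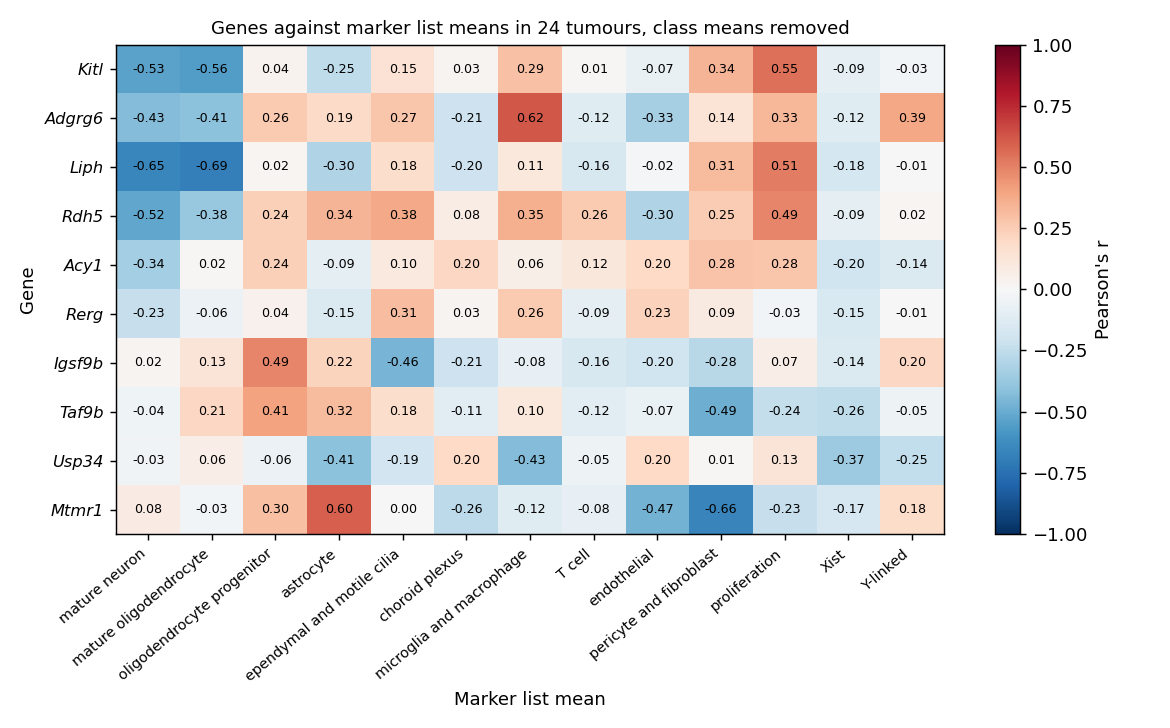
The heat map gives Pearson's r over 24 tumours, class gene means removed, between each of the 10 genes (rows) and the mean of each of 13 marker lists (columns). Kitl, Liph, Rdh5, Adgrg6, Acy1 and, weakly, Usp34 are negative with mature neuron genes and positive with proliferation genes. The values farthest from 0 are those of Liph with mature oligodendrocyte genes (-0.685) and Mtmr1 with pericyte and fibroblast genes (-0.664). No relation passed after adjustment.

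Transcripts linked to sex were given the same place because 2 of the genes are X-linked. Xist, which coats the X chromosome that is silenced, averaged 10.94 ± 1.10 in the 6 RAB3A tumours, 10.83 ± 0.86 in the 9 BC74C tumours and 10.38 ± 0.94 in the 9 ZNF668 tumours (mean ± SD). The Y-linked list averaged 6.55 ± 1.86 in the 6 RAB3A tumours, 6.71 ± 1.25 in the 9 BC74C tumours and 7.52 ± 1.05 in the 9 ZNF668 tumours (mean ± SD). Xist was 8.67 or more in every tumour, and single tumours held both signals. ZNF668 replicate 2 had 9.84 for Xist and 8.04 for the Y-linked list, and BC74C replicate 2 had 10.84 and 7.92. Neither measure therefore gives the sex of a tumour. Adjusted for the Y-linked list, RAB3A minus BC74C stood at 98.2% to 101% of its value for the 10 genes, and with Xist, an alternative chosen after seeing the data, at 99.1% to 102%. For Taf9b, HGG minus ependymoma was 0.45 (SE 0.25) adjusted for the Y-linked list, against 0.76 (SE 0.25) without it. The HGG-labelled BC74C tumours had the lowest Y-linked means of their class gene, 4.34 and 5.31, and those of ZNF668 had 8.04 and 7.89. Taf9b and the Y-linked list had r = -0.811 within BC74C, 0.673 within RAB3A and 0.613 within ZNF668 tumours. These adjustments do not account for sex, and its part in the label difference was not tested.

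For each gene, the 2 transcripts most like it over the 24 tumours were found by Pearson's r of deviations from class gene means among the 13218 genes tested. These r are the highest of many and carry no p. Acy1 was closest to Apeh, an acylpeptide hydrolase that was also on its list of relatives (0.891), and Ndufaf8 (0.853). Rdh5 was closest to Tmed5 (0.869) and Rpp40 (0.865), Adgrg6 to Apoc2 (0.869) and Itgb5 (0.867), and Kitl to Snd1 (0.819) and Rgl1 (0.815). Liph was closest to Ptges3l (0.821) and Uaca (0.805), and Taf9b to Atp5pb (0.819) and Chm (0.809). Lower values were found for Usp34, with Cpsf6 (0.772) and Zfp292 (0.76), and for Mtmr1, with Hspb3 (0.743) and Osgin2 (0.729). Igsf9b was closest to Tnr (0.709), a matrix protein on the oligodendrocyte progenitor list, and Ythdf1 (0.664), and Rerg to Plekho2 (0.70) and Rhbdd3 (0.676). None of the 20 transcripts is another of the 10 genes. The likeness did not hold equally in each class gene: Acy1 and Apeh had r = 0.927 within RAB3A, 0.969 within BC74C and 0.418 within ZNF668 tumours, and Taf9b and Atp5pb 0.991, 0.849 and 0.152 in the same order.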

How the data were processed

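RNA of 24 tumours was measured, per the labels, as biotin-labelled cRNA on 1 Affymetrix array each. The authors deposited log2 expression values for 45141 probe sets. That the scale is log2 was read from the values, which lie between 2.40 and 13.85, with array medians of 4.98 to 5.19. Partek 6.6 was used, per the submitters' processing notes; background correction and normalization are not given in the sources used here. If arrays were equalised, a shift common to most transcripts is not visible. Signal over background is not in the table. Precision is set by the number of arrays, with a median SE of 0.23 for RAB3A minus BC74C.

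Gene symbols came from the platform annotation (28898 probe sets with 1 symbol, 551 with several, 15588 with none, 104 controls left out) and were updated through a RefSeq table of GRCm38.p6. For each of 17097 genes the brightest single-symbol probe set was used, and genes under the 30th percentile (3.76) were not tested. The model was limma 3.58.1 in R 4.3.3 (lmFit, eBayes with trend), two-sided, Benjamini-Hochberg over 13218 genes at 0.05, with class gene as the factor or covariate. Correlations used 100000 permutations in Python 3.11.15 with scipy 1.17.1. Replicate numbers follow the order of deposit. The genes examined, the 13 marker lists and the 10 lists of relatives (199 of 233 genes measured, 182 tested) were chosen with earlier results of these data known. The genes named are all 10, the 2 relatives per list with the smallest p between RAB3A and BC74C tumours, and the 2 transcripts most like each gene, leaving aside names from clones or predictions. Simulated data in which 200 of 13218 genes were shifted served to check the model: at log2 shifts of 1 and 2 it recovered 60% and 89% for RAB3A minus BC74C. It recovered 75% and 94% for both minus ZNF668, 40% and 84% for HGG minus ependymoma, and 65% and 94% for mmr minus elw. False calls among the genes not shifted numbered 8, 8, 4 and 3 in the same order of contrasts. Noise was drawn for each gene apart, so genes that vary together were not simulated. Alternatives were the filter, median centring, quantile normalization, array weights, title prefix, tumour label, Y-linked, Xist, neuron and proliferation covariates, other probe sets and leaving out each tumour. The TUMOR and UNKNOWN labels did not enter the comparison of tumour labels.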

Additional observations from a re-analysis of the deposited data

Results flagged for a closer look

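A sample far from the others of its group was looked for at both ends of each gene's values in the 3 class genes and the HGG label, 40 groups in all; chance marks about 1 in 20 groups. Dixon's ratio passed its critical value for 2 of them. Acy1 was lowest in BC74C replicate 4, an ependymoma-labelled elw tumour, at 6.73, where the other 8 BC74C tumours lay between 7.24 and 7.69. Liph was highest in RAB3A replicate 4, an elw tumour labelled TUMOR, at 5.08, where the other 5 RAB3A tumours lay between 3.67 and 4.11. The same RAB3A tumour also had the highest Kitl (8.85) and Adgrg6 (6.61) and the lowest Mtmr1 (7.39) of its class gene. RAB3A minus BC74C was -0.97 (SE 0.14) for Acy1 without BC74C replicate 4 and -2.42 (SE 0.49) for Liph without RAB3A replicate 4.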

How the results depend on the processing

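RAB3A minus BC74C kept its sign for all 10 genes under every alternative run but 1, and moved by more than the spread between replicates in 6 further cases. Because the genes were chosen on this contrast, a kept sign is likely beforehand and tests nothing. A second Usp34 probe set gave -0.0037, other probe sets gave -0.46 for Liph, -0.66 for Kitl and 0.36 for Mtmr1, and ependymoma-labelled tumours alone gave -1.24 for Rerg, -0.57 for Acy1 and 1.95 for Taf9b. For RAB3A and BC74C minus ZNF668 the 35 genes called became 135 with array weights, 60 within elw, 0 within ependymoma labels, and 22 to 67 without 1 tumour, the extremes without ZNF668 replicates 3 and 9; 0 of the 10 genes were called under any of these. For mmr minus elw the count of 0 became 3 without the filter, 1 with quantile normalization, 328 with array weights and 0 to 15 without 1 tumour. With array weights 2 of the 10 were called there, Rerg at 0.88 (limma adjusted p = 0.0409) and Usp34 at 0.30 (limma adjusted p = 0.0446). HGG minus ependymoma called 0 genes under every alternative run. The median r of 0.426 was 0.719 with no class gene mean removed, 0.294 with neuron and proliferation means removed, and 0.33 to 0.499 without 1 tumour.

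Differences from ZNF668 near 0, none of them called, changed sign. Adgrg6 was -0.011 with median centring, -0.015 with quantile normalization, -0.061 with array weights, -0.036 with the prefix as a block and -0.23 within elw. Acy1 was 0.052 with array weights, 0.041 with the block, 0.041 within elw, 0.16 within ependymoma labels, 0.054 with neuron and proliferation means and 0.025 with Xist. Kitl was 0.041 with array weights, 0.012 with the block, 0.099 within elw and 0.11 with neuron and proliferation means. Rerg was 0.042 within elw and 0.29 within ependymoma labels. Without 1 tumour the range was -0.17 to 0.21 for Adgrg6, -0.044 to 0.063 for Acy1, -0.21 to 0.040 for Kitl and -0.099 to 0.017 for Mtmr1. For HGG minus ependymoma Adgrg6 was 0.035 with array weights and 0.084 with the Y-linked mean, and with the block Rerg was -0.14, Kitl -0.23 and Usp34 -0.019. Without 1 tumour it was -0.54 to 0.078 for Adgrg6 and -0.27 to 0.39 for Kitl, and mmr minus elw was -0.12 to 0.19 for Taf9b. The cause was not tested for any of these.

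No paired analysis was possible because replicate numbers only follow the order of deposit. Leaving out the tumours in turn for joint variation, like the Xist covariate, was chosen after seeing the data. The table holds no signal over background, so values near 3.76, as for Liph and Adgrg6 in RAB3A tumours, have unknown precision.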
